A study of Mus musculus with 4 samples.

Results

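A set of 10 marker genes of keratinocytes and other epithelial cells was followed through 4 libraries of sorted embryonic dermal cells. They are the keratin genes Krt5, Krt14, Krt15, Krt17, Krt10, Krt8 and Krt18, the transcription factor gene Trp63, and the adhesion genes Cdh1 and Epcam. Members were chosen by gene name, 10 of 34465 named genes in the tables. In both back libraries Krt5, Krt14, Krt15 and Krt17 were listed only inside loci that join several keratin genes, so the 10 genes gave 8 loci that can be compared across all 4 libraries.

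Messenger RNA was measured in embryonic mouse skin, with cells sorted by an Axin2-LacZ reporter that all 4 groups carry. Axin2 is switched on by canonical Wnt signalling and in turn restrains it, and the sort divided dermal cells by the activity of its promoter. The foot groups are ventral foot skin at E17.5, labelled Axin2-LacZ positive or negative, and the back groups are dorsal back skin at E14.5 with the same labels. Each of the 4 groups is 1 library, so no value has a replicate check, and site and stage cannot be told apart. The number of embryos behind a library is not given in the sources used here.

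Keratins are the intermediate filament proteins of epithelial cells, and a filament needs a type I and a type II chain. Krt5 (type II) pairs with Krt14 (type I) in the basal layer of the epidermis, Krt10 (type I) pairs with Krt1 in the layers above, and Krt8 (type II) pairs with Krt18 in simple epithelia and in the embryonic periderm. Trp63 encodes p63, which the stratified epithelium needs to form. Cdh1 encodes E-cadherin of epithelial adherens junctions, and Epcam an epithelial cell adhesion molecule. The dermis is mesenchymal and is not known for high levels of these genes.

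Promoters of Krt5 and Krt10 are shown because these genes stand for the basal and the suprabasal layer, the layers whose keratins gave the highest member values. RefSeq promoter windows (GRCm38.p6, 250 bases before to 50 after a gene's start) were given for 6 of the 10 members. Both windows below are on the minus strand, and capitals mark the motif TATAAA, searched on both strands.
Krt5 (chr15:101712856-101713155): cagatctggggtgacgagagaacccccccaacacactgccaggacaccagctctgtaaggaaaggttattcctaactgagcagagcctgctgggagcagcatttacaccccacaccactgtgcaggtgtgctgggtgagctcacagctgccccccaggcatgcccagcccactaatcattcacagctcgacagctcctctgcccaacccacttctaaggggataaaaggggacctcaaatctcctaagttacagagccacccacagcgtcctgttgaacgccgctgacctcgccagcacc
Krt10 (chr11:99389315-99389614): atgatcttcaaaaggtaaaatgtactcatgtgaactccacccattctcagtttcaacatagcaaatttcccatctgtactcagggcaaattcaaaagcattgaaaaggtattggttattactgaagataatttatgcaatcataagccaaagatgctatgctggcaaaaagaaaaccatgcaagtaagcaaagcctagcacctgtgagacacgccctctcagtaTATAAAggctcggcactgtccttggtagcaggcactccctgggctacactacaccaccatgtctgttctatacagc
The Krt10 window holds the motif 26 bases before the start, and the Krt5 window does not hold these letters. Of 32851 windows of this length in the RefSeq table, 13.6% hold the motif.

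The 12 dermal mesenchyme markers were above 0 in every library, with summed levels of 3901 to 7994 FPKM (fragments per kilobase of transcript per 1000000 mapped fragments). Col1a1, a collagen chain gene, and Pdgfra, a fibroblast receptor gene, were among them, and the defining markers of the labelled cell type were present. The bounds deposited with each FPKM, given in parentheses below, hold no spread between samples, and their widths imply about 2740000 fragments in the foot under the positive label, 6530000 under the negative label, and 19000000 and 16600000 in the back. Axin2 transcript stood at 9.65 FPKM (bounds 7.10–12.5) in the foot library labelled positive and at 12.9 (10.2–15.3) in the foot library labelled negative. The foot value was thus not greater under the positive label, and the bounds overlap, so no direction is read from it. Back skin had 4.49 FPKM (3.89–5.09) under the positive and 3.13 (2.63–3.64) under the negative label. Some genes that most cells use, such as the cholesterol synthesis gene Fdft1, are listed at 0 in both foot libraries and at 16.8 and 15.7 FPKM in the back, so a listed 0 is reported only as listed. Where a pair of values is given for 1 skin, the library labelled positive comes first.

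In the foot, 9 of the 10 members were listed at 0 in both libraries. For these 9 genes the upper bound was also 0 in each foot library. Krt5, Krt14, Krt15 and Krt17 each had an entry of their own there, as did Krt8 and Krt18. The member keratins of the basal layer, the simple epithelial pair, Trp63, Cdh1 and Epcam thus had no listed signal in either foot library.

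**Figure D1:**
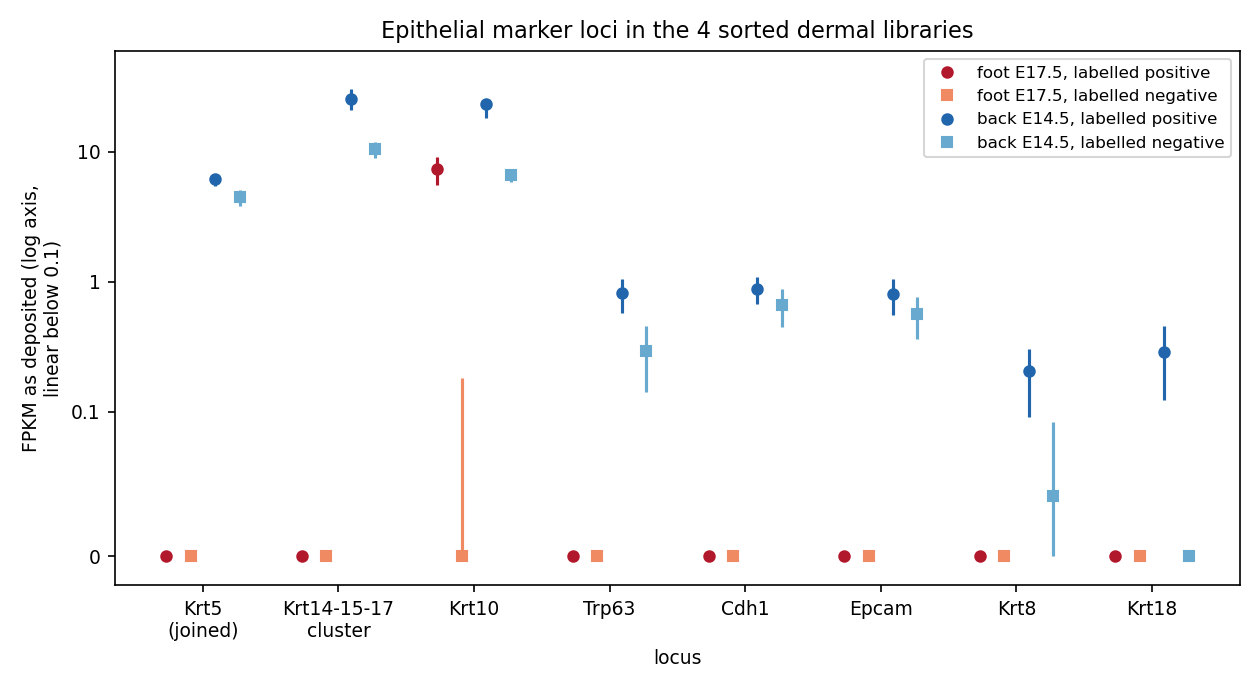
FPKM as deposited (log axis, linear below 0.1) of the 8 member loci in the 4 libraries, with points for the value and lines for the deposited bounds. All loci but Krt10 sit at 0 in both foot libraries, and every locus is above 0 in the back library labelled positive.

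Krt10 was the exception in the foot, with 7.38 FPKM (5.53–9.22) under the positive label. In the library labelled negative its entry was listed at 0 (upper bound 0.183). An unnamed assembled locus overlaps Krt10 in that library, at chr11:99246573-99247140 (mm9), with 34.4 FPKM (28.6–40.1). It starts 6 bases inside the Krt10 entry (chr11:99246567-99250678, mm9) and spans 568 bases. Krt10 lies on the minus strand in GENCODE M21, so this is the end of the gene where transcription stops.

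The widths of the bounds can be turned into a rough number of fragments when they are read as 2 standard deviations of a count on either side. Krt10 then had about 64.0 fragments in the foot library labelled positive, and the unnamed locus about 144 in the foot library labelled negative. Divided by the implied depth of each library these were 23.3 and 22.1 per 1000000. In the back, Krt10 had 22.8 per 1000000 in the library labelled positive and 18.9 in the library labelled negative. The figure of 22.8 is uncertain, because it comes from bounds that do not hold the FPKM of that entry. On this scale the 4 libraries lay between 18.9 and 23.3, while the deposited FPKM ran from a listed 0 to 23.5. Krt10 overlaps an antisense gene, Gm11940, which was listed at 0 in all 4 libraries, and whether the counting used strand is not given in the sources used here.

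**Figure D2:**
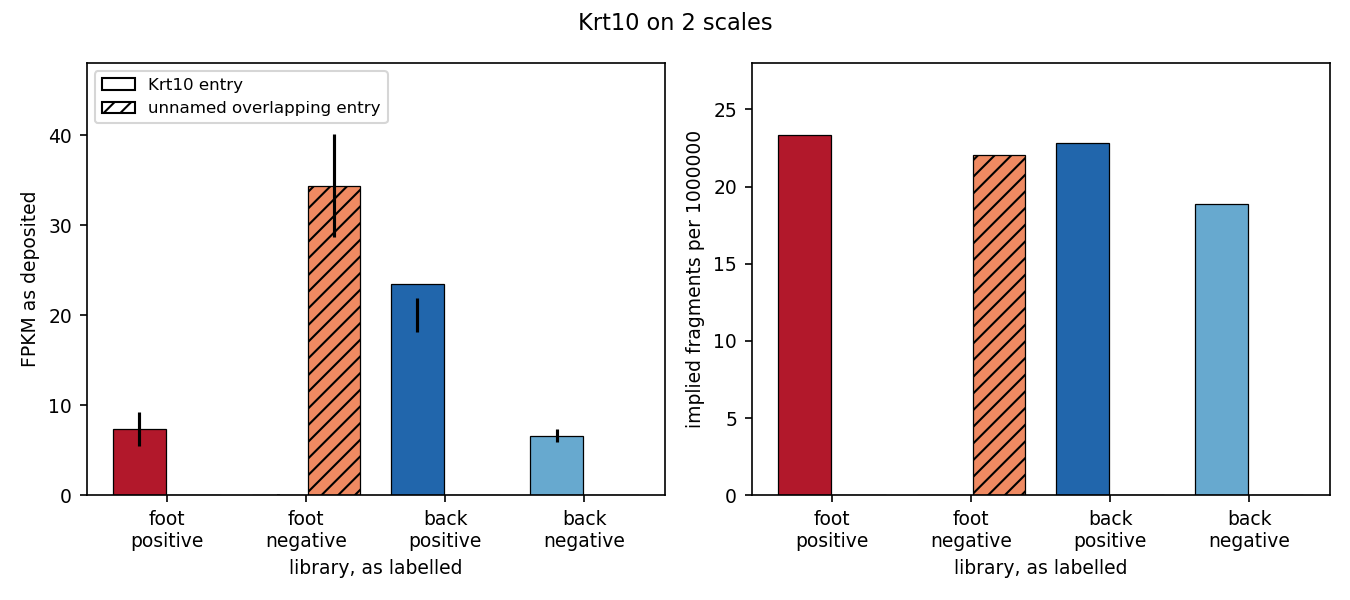
Krt10 by library as labelled, as deposited FPKM with its bounds (left) and as implied fragments per 1000000 (right), with plain bars for the Krt10 entry and hatched bars for the unnamed locus that overlaps it. The FPKM of the Krt10 entry differ between libraries, while the implied fragments lie between 18.9 and 23.3 per 1000000 when the unnamed locus stands in for the foot library labelled negative. In the back library labelled positive the FPKM lies above the bounds from which its fragments were taken.

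A difference between libraries was taken as log2((FPKM + 1)/(FPKM + 1)) after each library was divided by a median-ratio factor, and was called when it was at least 1 in size (2-fold) with a larger FPKM of at least 5. By this measure Krt10 was the single member locus called between the foot libraries, higher in the library labelled positive. The other 7 member loci, listed at 0 in both, could not be called. Krt10 passed the minimum only through the library labelled positive, so no call but higher was open to its named entry. Of the 8198 loci that reached the minimum of 5 FPKM in this comparison, 10.9% were called higher. Each share of calls below is likewise over the loci that reached the minimum. The call rests on the entry named Krt10: with the unnamed locus added to it, an alternative chosen after seeing the data, the value became -1.81. No unnamed locus overlapped another member in any library.

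In the back all 8 member loci were above 0 in the library labelled positive, and 7 in the library labelled negative. The keratins of stratified epidermis were highest. The locus that joins Krt14, Krt15 and Krt17 with Krt16, Krt19 and Krt42 (chr11:99993071-100131185, mm9) stood at 25.6 FPKM (20.9–30.3) in the library labelled positive. In the library labelled negative the same genes were split into a locus of Krt15 and Krt19 at 4.15 FPKM (3.27–4.83) and a locus of Krt14 and Krt17 at 6.26 FPKM (5.05–7.39), and with Krt16 and Krt42 they added up to 10.5 (9.01–11.8). These sums cannot be divided among the genes.

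Krt5 (chr15:101537500-101543322 where it has its own entry) was joined with Krt4 and Krt79 in the back library labelled positive, and with Krt4 and Krt6a in the other. The joined genes together stood at 6.15 FPKM in the library labelled positive and 4.47 (3.86–5.07) in the library labelled negative. Krt10 stood at 23.5 FPKM in the library labelled positive, a value above its own bounds of 18.1 to 22.0, and at 6.63 (5.88–7.38) in the library labelled negative. Its partner Krt1 stood at 3.73 FPKM (3.10–4.17) and 2.51 (2.01–2.96). The keratins of both epidermal layers were therefore above 0 in both back libraries, the cluster locus and Krt10 on a per-length scale above the joined Krt5 locus and Krt1.

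The other members were lower. Trp63 (chr16:25683848-25892188, mm9) stood at 0.817 FPKM (0.581–1.06) in the back library labelled positive and 0.294 (0.141–0.457) in the library labelled negative. Cdh1 (chr8:109127250-109194146) stood at 0.879 FPKM (0.672–1.09) and 0.663 (0.448–0.878). Epcam (chr17:88035318-88050446) stood at 0.806 FPKM (0.555–1.05) and 0.569 (0.363–0.760). These 3 genes lay within each other's bounds in the back library labelled positive, and in the library labelled negative Trp63 was the lowest, with bounds that overlap those of Epcam and Cdh1.

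The simple epithelial pair was lowest. Krt8 (chr15:101827141-101834773) stood at 0.208 FPKM (0.0964–0.305) in the back library labelled positive and 0.0421 (0–0.0933) in the library labelled negative. Krt18 (chr15:101858646-101862457) stood at 0.291 FPKM (0.124–0.456) in the library labelled positive and was listed at 0 in the other. Their implied fragments in the library labelled positive were 14.8 and 12.3, so these values rest on few fragments.

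Vim exceeded every member locus in the same libraries. This intermediate filament gene of mesenchyme stood at 603 FPKM in the back library labelled positive and 598 in the library labelled negative (a value above its own bounds of 457 to 481), 23.6 and 56.9 times the keratin cluster locus on a per-length scale. The neural and mesenchymal cadherin gene Cdh2 stood at 1.11 FPKM (0.937–1.29) in the back library labelled positive and 0.511 (0.380–0.641) in the library labelled negative. Cdh2 was thus 1.26 and 0.771 times Cdh1, and their bounds overlapped in both libraries. In the foot Cdh2 stood at 0.409 FPKM (0.0651–0.756) and 0.653 (0.389–0.920), where Cdh1 was listed at 0.

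All 8 member loci had a greater value under the positive than under the negative label in the back, before and after rescaling. Among coding loci above 0 in either back library 52.8% were higher by any amount after rescaling. The median value over the members was 0.32, beside 0.01 over these 13684 coding loci. It depends on the pseudocount, at 1.098 with 0.1 FPKM added (0.03 over the coding loci) and 0.12 with 5 FPKM added (0.00375). With 1 FPKM added the 12 dermal mesenchyme markers had a greater median, 0.44, with 8 of them higher. Among loci above 0 in either back library, the basal keratinocyte list had a median of 0.068 (9 of 12 higher). The suprabasal list had -0.012 (6 of 13) and the epidermal transcription factor list 0.028 (12 of 20). Some of these lists hold members. Of the 3 member loci that reached 5 FPKM, 2 were called higher, the cluster locus and Krt10, where 4.6% of the 6898 loci past the minimum were. The cluster locus had a log2 ratio of 1.05 ± 0.33, where the half-width combines the deposited bounds of both libraries without the added 1 FPKM. It fell under the threshold with 5 FPKM added in place of 1 (0.87). With the highest entry per gene in place of the sum of split entries it was 1.73, which sets the whole joined locus against a part of its genes. Krt10 had a log2 ratio of 1.54 ± 0.20, with a half-width from bounds that do not hold its FPKM under the positive label. With the midpoint of those bounds in place of the FPKM the ratio was 1.31, and with 5 FPKM added 1.22.

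Both calls differ from the implied fragments. For Krt10 the deposited FPKM differed 3.55-fold between the back libraries, and the implied fragments per 1000000 1.21-fold. The latter is uncertain, because the bounds of Krt10 under the positive label do not hold its FPKM. For the cluster locus the FPKM differed 2.43-fold, while the implied fragments per 1000000 were 6.18 in the library labelled positive and 13.3 in the library labelled negative. In a locus of several genes the bounds also widen with the assignment of reads to transcripts, so this last figure is uncertain. The cluster locus was assembled as 1 entry in the library labelled positive and as several in the other. With the split entries added it was called (1.05). With the highest alone (1.73) the whole joined locus is set against the locus of Krt14 and Krt17 only. That choice can only raise the ratio, so it is no check on the call.

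For Trp63 both scales went the same way, with 2.78-fold in FPKM and 2.82-fold in implied fragments per 1000000. Its rescaled bounds did not overlap between the back libraries, as for Krt10, Krt18 and the cluster locus. Over all named loci above 0 in either library, 13.8% were higher with bounds apart in this way. The log2 ratio of Trp63, 0.48 ± 0.88, is held down by the added 1 FPKM at this low level, and its half-width is not. The joined Krt5 locus, Cdh1 and Epcam had log2 ratios of 0.24 ± 0.25, 0.11 ± 0.58 and 0.14 ± 0.67, and that of Krt8 was 0.23 ± 1.76. For these too the ratio holds the added 1 FPKM and the half-width does not, so their sizes cannot be compared. Without it the rescaled folds were 2.45 for Trp63, 1.21 for the joined Krt5 locus, 1.17 for Cdh1, 1.25 for Epcam and 4.36 for Krt8. The rescaled bounds of the joined Krt5 locus, Cdh1, Epcam and Krt8 overlapped. For the joined Krt5 locus the fold was 1.38 in FPKM and 1.39 in implied fragments per 1000000. Its bounds in the 2 libraries were apart as deposited and overlapped after rescaling.

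The foot against back comparisons place these values side by side. For the positive label 3 of the 3 loci that reached 5 FPKM were called lower in the foot, where 15.7% of the 7990 loci past the minimum were. They were the joined Krt5 locus, the cluster locus and Krt10. For the negative label 2 of 2 were called lower, the cluster locus and Krt10, where 13.1% of 7949 were. The joined Krt5 locus stayed under the minimum at 4.47 FPKM in the back. The loci called lower, save Krt10 for the positive label, were listed at 0 in the foot and passed the minimum only through the back. No call but lower was open to them, so these counts repeat the listed 0 and add nothing to it. Krt10 had a log2 ratio of -1.83 ± 0.38 for the positive label, and for the other called loci no fold is given because the foot was listed at 0. No member locus was called higher in the foot, where 14.7% (positive label) and 13.9% (negative label) of the loci past the minimum were. The Krt10 calls carry the limits of its entry given above, and for the negative label the call turns round when the unnamed locus, at 34.4 FPKM, is counted with Krt10. In bulk samples fewer cells of a type and less RNA per cell cannot be told apart.

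Depth differed between the skins as well. Of coding loci between 5 and 30 FPKM in the back library labelled positive, 16 of 3422 (0.468%) were listed at 0 in both foot libraries, and 2 of the 3 member loci in this range were among them. Of coding loci between 0.5 and 1 FPKM 12.1% of 1028 were so listed, and of those between 0.2 and 0.5 FPKM 23.5% of 1055. Trp63, Cdh1 and Epcam fall in the former range and Krt8 and Krt18 in the latter, and all 5 were listed at 0. At the implied depths, the FPKM of the back library labelled positive would correspond to about 6.71 fragments of Trp63, 10.3 of Cdh1 and 6.0 of Epcam in the foot library labelled positive. In the foot library labelled negative the same levels would correspond to 16.0, 24.6 and 14.3 fragments. For Krt8 and Krt18 they would be 2.13 and 1.76 in the foot library labelled positive, and 5.07 and 4.20 in the library labelled negative. The part of depth in the listed 0 values was not tested.

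**Figure D3:**
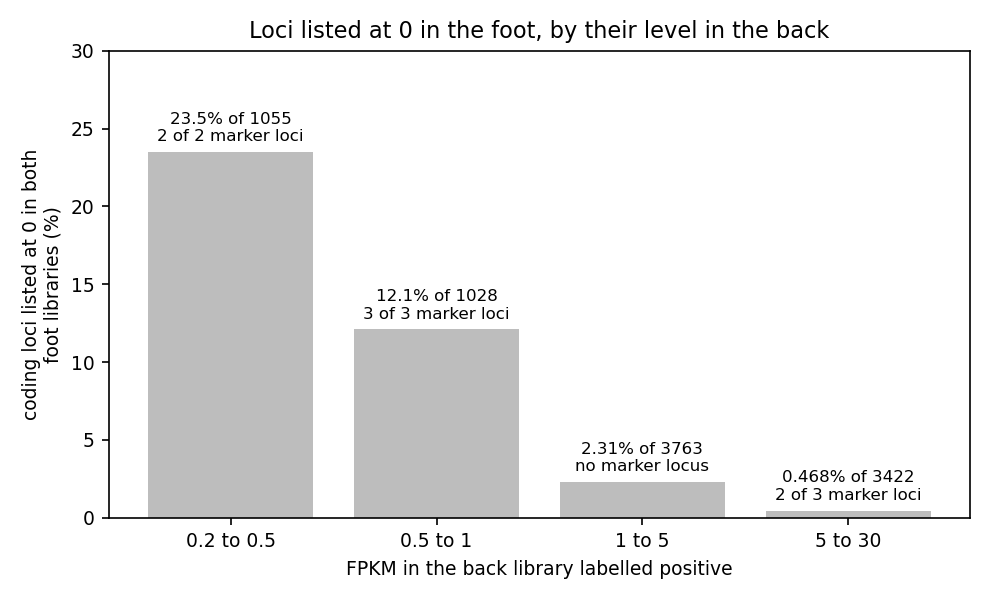
Share of coding loci that are listed at 0 in both foot libraries (vertical axis, percent), by their FPKM in the back library labelled positive (horizontal axis), with the number of loci and of member loci above each bar. The share falls from 23.5% to 0.468% with level, and 2 of the 3 member loci between 5 and 30 FPKM were listed at 0.

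The difference between the foot and the back ratio adds little, because 7 of the 8 loci were listed at 0 on both sides in the foot. Krt10 was called higher in it and the cluster locus lower, where 12.8% of the 8800 loci past the minimum were called higher and 14.4% lower. For the cluster locus this is the back ratio with its sign turned. For Krt10 the direction turns round when the unnamed locus is counted with it.

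Other epidermal genes were read from lists chosen with earlier results of these data known. Of 25 epithelial junction loci, 23 were above 0 in both back libraries and 14 of these 23 were listed at 0 in both foot libraries. Perp, a desmosome-associated gene and the highest of the list, stood at 17.46 FPKM (14.8–17.51) and 13.997 (11.7–14.4) in the back libraries labelled positive and negative. In the foot it stood at 0.121 (0–0.324) and 1.02 (0.592–1.41). Perp was the single junction gene that reached 5 FPKM and was called lower in the foot under both labels. It passed the minimum only through the back, so no call but lower was open to it. After rescaling, 25 of the 25 junction loci were lower in the foot for the positive label and 22 for the negative label. The 2 that were higher in the foot for the negative label were Cldn7, a claudin gene, and a locus that joins the protease inhibitor gene Spint2 with 2200002D01Rik. Cldn7 stood at 3.58 FPKM (0.512–6.77) in the foot library labelled negative and 0.197 (0–0.727) in its back counterpart. The Spint2 locus stood at 3.83 FPKM (2.52–5.29) in that foot library and was listed at 0 in that back library. Summed over the list, the foot libraries had 1.09 and 12.2 FPKM and the back libraries 42.9 and 30.002. Between the back libraries 17 of the 25 junction loci had the greater value under the positive label, with a median of 0.13, where 52.8% of coding loci did. Only Perp reached the minimum there, and it was not called.

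Of 13 basal keratinocyte loci, 3 of which hold members, 11 were above 0 in both back libraries and 6 of these were listed at 0 in both foot libraries. Itga6, an integrin chain gene of basal cells that endothelium also uses, stood at 3.95 FPKM (3.51–4.40) in the back library labelled positive and 1.07 (0.295–4.84) in the foot library of that label. Col17a1, a hemidesmosome collagen gene, went the other way for the positive label, with 2.01 FPKM (0.376–4.03) in the foot and 0.373 (0.112–0.674) in the back. Lama3, a laminin chain gene, stood at 0.364 FPKM (0.142–0.632) in the foot library labelled positive and 0.0110 (0–0.0384) in the back library of that label. Dst, which encodes dystonin and is also used outside epithelia, stood at 1.42 and 1.402 FPKM in the foot and at 4.05 (3.51–4.59) and 0.430 (0.336–0.530) in the back. Summed over the basal list, the foot libraries had 4.92 and 3.01 FPKM, none of it from member loci, and the back libraries 41.99 and 21.9, of which member loci gave 32.5 and 15.3. Itgb4, the hemidesmosome partner of Itga6, was listed at 0 in all 4 libraries. Of 22 epidermal transcription factor loci, 18 were above 0 in both back libraries, and 11 of these were listed at 0 in both foot libraries. Klf4, a differentiation factor of epidermis that mesenchyme also expresses, was the highest at 10.1 FPKM (9.24–10.9) and 8.0 (7.20–8.81) in the back. It stood at 1.66 (0.752–3.07) and 4.23 (3.17–5.36) in the foot and was called lower there under both labels. Klf4 also passed the minimum only through the back, so no call but lower was open to it.

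Suprabasal genes were mixed in the foot library labelled negative. Sbsn, which encodes suprabasin of the upper epidermis, stood at 62.7 FPKM in the foot library labelled negative, a value above its own bounds of 14.1 to 28.2. It stood at 0.0985 (0–0.269) in the foot library labelled positive, and at 0.614 (0.419–0.800) and 2.95 (2.28–3.62) in the back libraries labelled positive and negative. Krtdap and Dmkn, neighbours of Sbsn that were joined in a back library, together stood at 15.6 FPKM (11.0–20.3) in the foot library labelled negative and were listed at 0 in the foot library labelled positive. In the back they stood at 68.8 (61.5–75.2) and 74.5 (67.7–81.3). Against the back library labelled negative, Sbsn was called higher in the foot, as were 13.9% of all loci past the minimum. The Krtdap locus and Krt10 were called lower, as were 13.1%. The Sbsn and Krtdap loci were called lower in the foot library labelled positive than in the one labelled negative. Of the loci past the minimum 10.8% were. Both loci passed the minimum there only through the library labelled negative, so no other call was open to them. Against the back, Sbsn passed the minimum only through the foot, so it could be called only higher. Krt5, Krt14 and Krt1 were listed at 0 in the foot library labelled negative. Of the 19 loci of this list 14 were listed at 0 in both foot libraries, among them Lor and Flg of the cornified layer.

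Of 34 loci of other type I and type II keratins, which include the joined loci that hold members, 30 were listed at 0 in both foot libraries and 9 were above 0 in both back libraries. Of the periderm and simple epithelium list, 8 of 9 loci were listed at 0 in both foot libraries. Of these 9 loci 4 are member loci described above, which gave 32.2 of the 36.1 summed FPKM in the back library labelled positive, so this list is not separate from the members. Sfn, which encodes 14-3-3 sigma of stratified epithelia, was the exception at 0.146 and 0.184 FPKM, beside 3.65 (2.81–4.17) in the back library labelled positive.

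Markers of other cell types that a dermal sort could hold moved in several ways beside these values. Of the endothelial markers 8 of 8 were above 0 in both back libraries, 6 of these were listed at 0 in both foot libraries, and their summed level was 7.94 and 6.57 FPKM in the back against 0.979 and 0.461 in the foot. The defining endothelial genes Pecam1 and Cdh5 were among the 6. Mast cell and leukocyte markers went the other way between the sorted fractions, with 10 of 10 lower in the back library labelled positive. Their summed level was 2.95 FPKM in the foot library labelled positive, 267 in the foot library labelled negative, 27.8 in the back library labelled positive and 97.6 in the back library labelled negative. Merkel cell markers, which include Krt8 and Krt18, summed to 0.961 to 1.30 FPKM over the 4 libraries, and Krt20 was listed at 0 in each. All 5 mesothelial markers were listed at 0 in both foot libraries, and 1 was above 0 in both back libraries. Melanocyte and Schwann cell markers summed to 0.803 to 2.61 FPKM over the 4 libraries, and skeletal muscle markers to 2.46 to 15.8, the highest in the foot library labelled negative. The part of these cell types in the members' values was not tested.

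**Figure D4:**
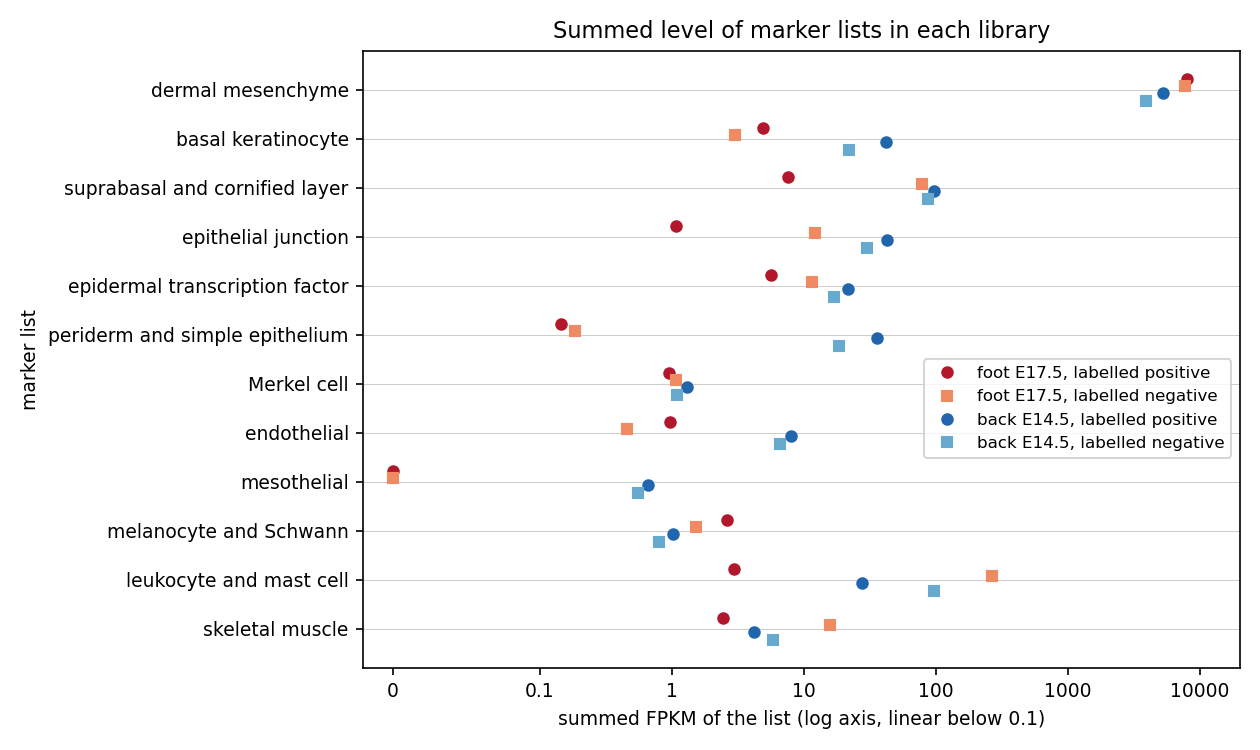
Summed FPKM (log axis, linear below 0.1) of 12 marker lists in each library, with circles for the positive and squares for the negative label. Dermal mesenchyme markers sit between 3901 and 7994 in every library. The basal, suprabasal, junction, transcription factor, periderm, endothelial and mesothelial lists sit lower in both foot libraries than in both back libraries. The Merkel cell list does so by a small margin. Member loci are part of the basal (3 loci), suprabasal (1), junction (2), transcription factor (1), periderm (4) and Merkel cell (2) lists.

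The genes whose pattern over the 4 libraries was most like that of the Krt14 locus were sought among 8800 loci of at least 5 FPKM in any library. Likeness was the distance between rescaled log2(FPKM + 1) values, each centred on its own mean. The 5 nearest were SNORA33 (0.44), Meis1 (0.44), Stmn2 (0.46), Gm17605 (0.52) and the joined locus of Hoxc5, Hoxc10 and Gm20398 (0.53). Meis1, a homeobox gene of the proximal limb, stood at 0.122 and 0.534 FPKM in the foot and at 23.2 and 12.0 in the back. None of the 5 is a keratin or junction gene. For Krt8, whose values reached no more than 0.208 FPKM and so were nearly flat, the 5 nearest were the flat genes Itgb1, Fto, Nagk, Pafah1b3 and Ppp2r2a. With 4 libraries this is a description only.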

How the data were processed

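Messenger RNA libraries of sorted dermal cells were sequenced on Illumina machines, per the labels' protocols. The submitters' processing notes name TopHat, Cufflinks and the mm9 build; their versions and settings, and the annotation, are not given in these sources. Per the file headers, the authors deposited FPKM for each gene or assembled locus, bounds on either side of it, and a quantification status. Each of the 4 groups holds 1 library, so no test, p-value or standard error exists.

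Genes joined in 1 locus in any table were treated as 1 locus in all, with their FPKM added and the distances to their bounds combined in quadrature, which gave 33126 loci, 975 of them joined. Date-like entries in 1 table were turned back into 22 gene symbols. Loci with a status other than OK (459) were left out of counts. Median-ratio factors over loci of at least 5 FPKM in every library were 1.10 and 1.31 for the foot and 0.888 and 0.782 for the back, the positive label first. Printed FPKM are as deposited. Coding status, strand and the lengths behind the implied fragments came by symbol from GENCODE M21 (GRCm38), so implied fragments are approximate. The scaling and calls were tested on simulated data. Work was done in Python 3.11.15 with pandas 2.3.3 and matplotlib 3.10.9.

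The members, the 14 gene lists and the rules were chosen with earlier results of these data known. Names were drawn, not all of them printed, from all members, the 2 highest genes of a list and up to 5 of its genes called at 2-fold, Axin2, Cdh2 and Vim, and the 5 genes nearest to Krt14 and to Krt8. Krt1, Sfn, Fdft1, Itga6, Itgb4, Col17a1, Lama3, Dst, Cldn7, Spint2, Krt20, Pecam1, Cdh5, Lor, Flg, Shh, Gm11940, Gm11598 and the unnamed locus were chosen after their values were seen. Alternatives were other scalings, pseudocounts of 0.1 and 5, a minimum of 1 FPKM or none, all statuses and the highest entry per gene. For Krt10, adding the unnamed locus and taking the midpoint of bounds were added after seeing the data.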

Additional observations from a re-analysis of the deposited data

Results flagged for a closer look

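An unnamed assembled locus at the end of Krt10 stood at 34.4 FPKM (28.6 to 40.1) in the foot library labelled negative, in an entry that comparisons by gene name do not use. No unnamed locus overlapped Krt10 in the other 3 libraries, and the entry named Krt10 was listed at 0 in this one. The locus spans 568 bases, and FPKM is a level per length. The part of the assembly in this value was not tested.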

How the results depend on the processing

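The count of member loci past 2-fold in either direction stayed within 1.5 times its reported value in 48 of 50 alternatives. These counts do not register a change of direction. With the unnamed locus added, the Krt10 call turned round between the foot libraries, in foot against back for the negative label, and in the foot minus back difference. With a pseudocount of 5 the count fell from 2 to 1 between the back libraries, where the cluster locus went under the threshold, and from 2 to 0 for the foot minus back difference. The median over the members in the back ran from 0.12 (pseudocount 5) to 1.098 (pseudocount 0.1), and the cluster locus from 0.87 to 1.73. The value of 1.73 sets the whole joined locus against a part of its genes. The Krt10 value between the foot libraries was reversed, to -1.81, when the overlapping unnamed locus was added to it, an alternative chosen after seeing the data. Of the 7 member loci above 0 in both back libraries, the ratio stayed above 0 in 56 of 56 values over all settings. A pseudocount cannot turn the sign of a ratio, and the unnamed locus lies in a foot library. The midpoint of bounds changed only Krt10 in this comparison. Many of the 56 values were thus fixed in advance, and their count is no check on the direction. No paired analysis was possible because each group holds 1 library, and for the same reason no library could be left out. The foot libraries, with fewer implied fragments, limit what can be said of members under 1 FPKM.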

Other observations

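The list of hair placode and early sweat gland epithelium held some genes that were higher in the foot, where the members were mostly listed at 0. Lhx2, a LIM homeobox gene of hair placodes that limb mesenchyme also expresses, stood at 19.7 FPKM (15.7–25.5) and 29.8 (25.7–34.1) in the foot (positive label first), and at 0.203 (0.0648–0.624) and 0.102 (0.0256–0.572) in the back. Pthlh, which encodes parathyroid hormone-related protein, stood at 9.96 FPKM (7.03–12.5) and 11.3 (8.70–12.9) in the foot and at 0.0830 (0.0181–0.145) and 0.0963 (0–0.248) in the back. Sostdc1, a secreted BMP and Wnt modulator, stood at 44.0 FPKM (35.4–45.9) and 39.1 (32.4–39.9) in the foot and at 12.1 (9.98–12.2) and 6.27 (5.02–6.75) in the back. The placode ligand gene Shh was listed at 0 in all 4 libraries. Lhx2, Pthlh and Sostdc1 were called higher in the foot under both labels, and Bmp2 under the negative label, which made 3 and 4 of the 5 loci of the list that reached the minimum of 5 FPKM under each label. Of all loci past the minimum 14.7% (positive label) and 13.9% (negative label) were called higher. Lhx2, Pthlh and Bmp2 passed the minimum only through the foot, so no call but higher was open to them. The list has 18 loci in all, of which 10 were listed at 0 in both foot libraries. Called lower in the foot were 2 for the positive and 1 for the negative label, all loci that hold members. After rescaling, 7 loci were higher and 6 lower in the foot for the positive label, and 7 and 5 for the negative label. Krt5, Krt14 and Krt15 were listed at 0 in the same foot libraries.

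Gm11598, a processed pseudogene inside the type I keratin cluster chosen after its values were seen, stood at 27.95 FPKM in the back library labelled positive and 33.0 in the library labelled negative. Both values lay above their own bounds, 10.4 to 15.6 and 12.4 to 18.8.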
